A study of Mus musculus with 15 samples.

Results

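The 38 Hox genes described here lie in the 4 Hox clusters of the mouse and were chosen by name and position, not by any measured value. Earlier results of these data were known when the genes were chosen. They were 38 of 21630 protein-coding RefSeq genes on chromosomes 1 to 19 and X, with 10 genes in HoxA on chromosome 6, 10 in HoxB on chromosome 11, 9 in HoxC on chromosome 15 and 9 in HoxD on chromosome 2. Each gene was taken as its RefSeq span plus 2 kb on either side, called its window below, and each cluster as the stretch from its first to its last listed gene, with 100 kb on either side as flank. Coordinates are those of GRCm38.

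The cells were EL4, a line grown from a T lymphocyte lymphoma of a C57BL/6N mouse, with no treatment in the labels. ChIP-seq of H3K27me3, H3K36me2, H3K4me3, H3K9ac and H3K27ac and ATAC-seq, which marks DNA open to a transposase, gave 2 replicates each, so 12 lists of called intervals. The lists hold positions with no height and no read count, the depth behind them is unknown, and the replicates are technical by the methods of the study. The values below are therefore given for replicate 1 and then replicate 2, as a description without a test.

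Hox genes encode homeodomain transcription factors that set position along the body axis. Within a cluster they lie in order of their paralog number, low numbers being used towards the head and early, high numbers towards the tail and late, and genes with the same number in different clusters are paralogs. Polycomb complexes hold Hox genes silent outside their domain with H3K27me3, while Trithorax (MLL) complexes place H3K4me3 at those in use. H3K9ac and H3K27ac mark active promoters and enhancers, and H3K36me2 is a broad mark that hinders methylation of H3K27 on the same tail. Blood progenitors use a part of the HoxA and HoxB genes, and several HoxA genes are known for their part in leukaemia.

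The T cell label was checked with 10 genes of the T lineage, among them Cd3e, Cd3d and Cd3g, the chains of the CD3 complex. All 10 were touched by H3K4me3, H3K9ac, H3K27ac and H3K36me2 in both replicates, 9 of the 10 by ATAC-seq, and 0 by H3K27me3, which covered 12.7% of the window of Tcf7 in replicate 1 alone. Over all protein-coding genes the shares were 51.8%, 50.6%, 51.6% and 46.2%, then 47.2% for ATAC-seq and 18.0% for H3K27me3. Among 10 genes of other lineages 4 carried H3K4me3 in both replicates, namely Cd79a, Pax5, Lyz2 and Klf1, and 3 carried H3K27me3, namely Pax5, Ebf1 and Csf1r. At Pax5 H3K4me3 covered 0.787% and 0.719% of the window and H3K27me3 31.8% and 45%. The part of such marks in the Hox results was not tested.

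Called in both replicates, each of the 5 histone marks touched about the same share of Hox genes as of protein-coding genes at large. In both replicates H3K27me3 touched 6 of 38 Hox genes, or 15.8%, beside 18.0% of all protein-coding genes. A further 5 were touched in replicate 2 and not in replicate 1, so replicate 2 touched 11. H3K36me2 touched 19 Hox genes, or 50%, beside 46.2% of all genes. H3K4me3 touched 21, or 55.3%, beside 51.8%, and H3K9ac touched 20, or 52.6%, beside 50.6%. H3K27ac touched 21, or 55.3%, beside 51.6%. These shares lay near the protein-coding background. ATAC-seq touched 10 Hox genes in both replicates, or 26.3%, beside 47.2% of all protein-coding genes, and 6 more in 1 replicate. The Hox genes are all protein-coding, so this background is the like one, and the ATAC-seq share lay below it. With non-coding RefSeq genes included, the background was 26.6% for ATAC-seq, 30.1% for H3K36me2, 30.2% for H3K4me3, 29.1% for H3K9ac and 30.3% for H3K27ac. Against that wider set the Hox share was near the background for ATAC-seq and above it for these 4 marks.

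Hox genes are short. Their spans ran from 1.78 kb to 44 kb with a median of 3.72 kb, against a median of 17.3 kb over protein-coding genes. The part of length in the counts and in the cover was not tested. The means below include genes at 0%. H3K4me3 covered on average 13.5% and 13.5% of a Hox gene window, against 5.81% and 5.73% over all genes. H3K36me2 covered 42.4% and 38.7%, against 27.1% and 26.6%. H3K27me3 covered 9.4% and 18.4%, against 7.89% and 9.15%, while ATAC-seq covered 1.4% and 1.66%, against 1.73% and 1.92%. Neighbouring windows overlap, and the spans of Hoxa3, Hoxb3 and Hoxd3, at 44 kb, 40.8 kb and 36.3 kb, contain other Hox genes, so the genes do not count as separate observations.

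**Figure D1:**
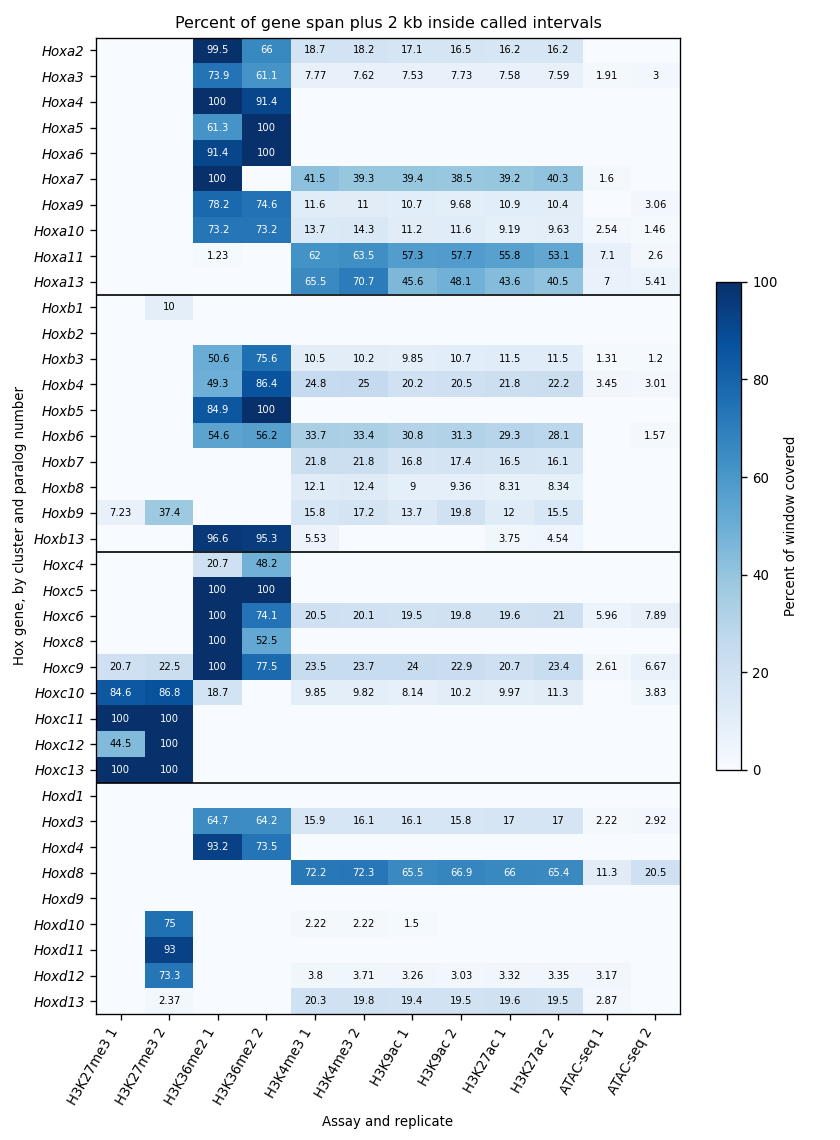
Percent of each Hox gene window (span plus 2 kb, rows by cluster and paralog number) inside intervals of each assay and replicate (columns); blank cells are 0. H3K27me3 covers Hoxc10 to Hoxc13 in both replicates and Hoxd10 to Hoxd12 in replicate 2, H3K36me2 covers mostly other genes, and the columns of H3K4me3, H3K9ac and H3K27ac resemble each other.

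By the marks present in both replicates the 38 genes fell into 11 combinations. H3K36me2 was the lone mark at 8 genes, Hoxa4, Hoxa5, Hoxa6, Hoxb5, Hoxc4, Hoxc5, Hoxc8 and Hoxd4. H3K27me3 was the lone mark at 3, Hoxc11, Hoxc12 and Hoxc13. Another 6 genes, Hoxa3, Hoxa10, Hoxb3, Hoxb4, Hoxc6 and Hoxd3, carried every assay but H3K27me3, and Hoxa2, Hoxa9 and Hoxb6 carried the same set without ATAC-seq. H3K4me3 with both acetylations, and no broad mark called in both replicates, was seen at Hoxa7, Hoxb7, Hoxb8, Hoxd12 and Hoxd13, joined by ATAC-seq at Hoxa11, Hoxa13 and Hoxd8. In 1 replicate H3K36me2 covered 100% of the window of Hoxa7 and 1.23% of Hoxa11. Likewise H3K27me3 covered 73.3% of Hoxd12 and 2.37% of Hoxd13 in 1 replicate. At Hoxb7, Hoxd12 and Hoxd13 the activating marks lay in the 2 kb beside the gene and not in its span. Hoxc9 alone carried all 6 assays. At 5 genes, Hoxb1, Hoxb2, Hoxd1, Hoxd9 and Hoxd11, no assay had an interval in both replicates. No share over all genes is given for the full combinations. For pairs, 10 of the 21 Hox genes with H3K4me3 also had H3K36me2, beside 76.9% of all protein-coding genes with H3K4me3. With H3K27me3 it was 3 of the 21, beside 6.76%.

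HoxC held the most H3K27me3. From Hoxc13 to Hoxc4 (chr15:102921131-103036856) the mark covered 36.9% and 45.2% of the bases, against 9.87% and 11.4% of the bases of all gene windows. Over Hoxc13, a gene known for its part in hair and nails, it filled 100% of the window in both replicates, and over Hoxc11 likewise 100% and 100%. Hoxc12 was covered over 44.5% and 100%, and Hoxc10, used in the hindlimb part of the spinal cord, over 84.6% and 86.8%. Hoxc10 also had H3K4me3 over 9.85% and 9.82% and ATAC-seq over 0% and 3.83%. These 4 genes lie side by side at the high-numbered end of the cluster.

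The interval over Hoxc13 and Hoxc12 reached far beyond the cluster. It spanned 161 kb in replicate 1 (chr15:102776601-102937399) and 186 kb in replicate 2 (chr15:102757801-102943999), starting 145 kb and 163 kb before Hoxc13. Each was the longest of its list, rank 1 of 46015 and rank 1 of 38014 intervals, where the median interval measured 4.2 kb and 5.8 kb. Neither touched a protein-coding gene other than Hoxc13 and Hoxc12. On the low-numbered side, past Hoxc4, H3K27me3 came back at 159 kb from the first base of Hoxc13 in both replicates, in intervals of up to 21.8 kb and 21.4 kb.

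H3K27me3 gave way to H3K36me2 inside Hoxc9, a gene of the thoracic level of the body axis. H3K27me3 ended at position 102977399 in replicate 1 and 102977599 in replicate 2, 1 bin of 200 bp apart. H3K36me2 began at 102972201 in replicate 1, so that the marks shared 5199 bp there, and at 102977601 in replicate 2, the bin next to the end of H3K27me3. Across all 4 clusters and flanks, bases in both broad marks were found at this place and no other, and with replicate 1 of H3K36me2 but not with replicate 2. Over Hoxc9 the window held H3K27me3 at 20.7% and 22.5%, H3K36me2 at 100% and 77.5% and H3K4me3 at 23.5% and 23.7%. Lists from pools of cells cannot tell whether the marks sat on the same chromosome copy.

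**Figure D2:**
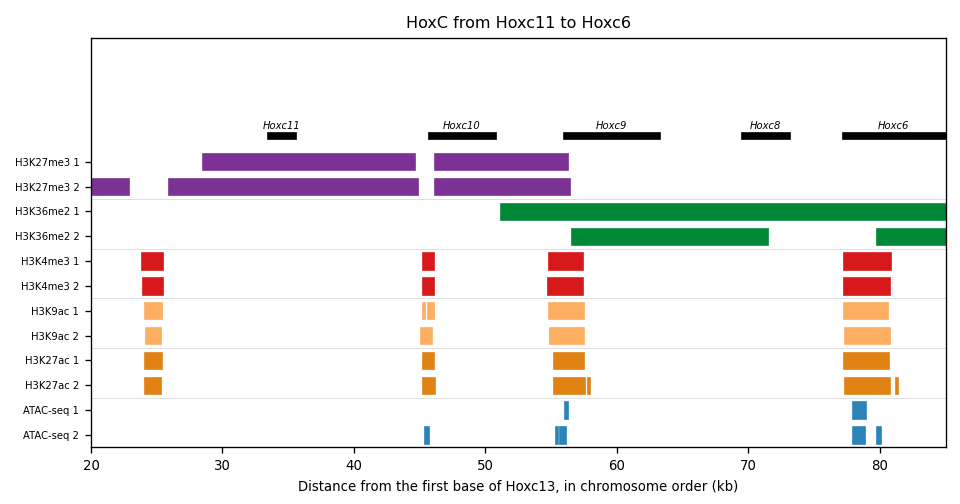
Called intervals of each assay and replicate (rows) from Hoxc11 to Hoxc6, against distance in kb from the first base of Hoxc13; black bars are gene spans. H3K27me3 ends at 56.3 kb and 56.5 kb, H3K36me2 starts at 51.1 kb and 56.5 kb, and H3K4me3 lies over the change and in the breaks of H3K27me3 to its left.

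Beyond Hoxc9 the cluster carried H3K36me2. In replicate 1 an interval of 48.6 kb ran from Hoxc9 into Hoxc4 (rank 191 of 38897), and in replicate 2 it was broken into pieces of 15 kb and 20 kb over the same genes and 10.4 kb at the far end of Hoxc4. Hoxc8 was covered over 100% and 52.5%, Hoxc6 over 100% and 74.1%, Hoxc5 over 100% and 100% and Hoxc4 over 20.7% and 48.2%. Hoxc4, Hoxc5 and Hoxc8 had no interval of H3K4me3, acetylation or ATAC-seq in either replicate, whereas Hoxc6 had H3K4me3 over 20.5% and 20.1% and ATAC-seq over 5.96% and 7.89%.

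Breaks in the H3K27me3 of HoxC held H3K4me3. The cluster had 4 stretches of H3K4me3, each in both replicates and each with H3K9ac and H3K27ac in both. The 1.68 kb stretch over Hotair, a long non-coding RNA gene between Hoxc12 and Hoxc11, lay 2.98 kb and 0.379 kb from the nearest H3K27me3. The 0.911 kb stretch at Hoxc10 lay between H3K27me3 intervals and shared 11 bp with them in each replicate. The 2.74 kb stretch at Hoxc9 lay across the border, with 58.1% and 65.4% of it in H3K27me3. The 3.62 kb stretch at Hoxc6 was 20.9 kb and 20.7 kb away from H3K27me3.

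HoxA showed the opposite picture. Between Hoxa2 and Hoxa13 (chr6:52162417-52260880) H3K27me3 covered 0% in both replicates, and in the flanks it had 1 interval of 4 kb in replicate 1 and 1 of 7.2 kb in replicate 2, at different places and more than 50 kb from Hoxa2. H3K36me2 covered 69.2% and 53.2%, more than in the other clusters in each replicate and against 22.3% and 22.2% of all gene windows. Hoxa2, known for its part in the second pharyngeal arch, was covered over 99.5% and 66%, and Hoxa4 over 100% and 91.4%. Hoxa5, used in the airways, was covered over 61.3% and 100%, Hoxa6 over 91.4% and 100% and Hoxa3 over 73.9% and 61.1%. The longest intervals measured 19.2 kb in replicate 1, over Hoxa4 within Hoxa3, and 13 kb in replicate 2, over Hoxa5 and Hoxa6.

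Hoxa7 set the replicates of H3K36me2 apart. Its window was covered over 100% in replicate 1 and 0% in replicate 2, while its H3K4me3 differed little, at 41.5% and 39.3%. Hoxa9 and Hoxa10, used in blood progenitors and often active in leukaemia, carried H3K36me2 over 78.2% and 74.6% and over 73.2% and 73.2%. Their H3K4me3 covered 11.6% and 11% and 13.7% and 14.3%. For H3K36me2, Hoxa11 had 1.23% and 0%, and Hoxa13 had 0% in both, so these end genes held little of the mark. There H3K4me3 was wide instead. It covered 62% and 63.5% of the window of Hoxa11, used in the forearm and the uterus, and 65.5% and 70.7% of that of Hoxa13, used in the digits and the hindgut.

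HoxA had 7 stretches of H3K4me3 between its first and last gene, all in both replicates. They measured 3.75 kb at Hoxa3, 1.79 kb at Hoxa7, 0.958 kb between Hoxa7 and Hoxa9, 1.96 kb at Hoxa10, 4.12 kb at Hoxa11, 0.923 kb between Hoxa11 and Hoxa13 and 3.42 kb at Hoxa13. H3K9ac and H3K27ac touched 6 of the 7 in both replicates, all but the one between Hoxa11 and Hoxa13. Hoxa4, Hoxa5 and Hoxa6, which lie within the long span of Hoxa3, had 0% of every activating mark. H3K4me3 in the windows of Hoxa2 and Hoxa9 lay in the 2 kb beside the genes and not in their spans.

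HoxB was divided into blocks. Between Hoxb13 and Hoxb1 (chr11:96194316-96368254) H3K27me3 covered 13.2% and 22.5% of the bases and H3K36me2 20.3% and 27%. Most H3K27me3 lay in the long gap between Hoxb13 and Hoxb9, where it started 40.3 kb past Hoxb13 in replicate 1 and 11.7 kb past it in replicate 2. It covered 7.23% and 37.4% of the window of Hoxb9, in replicate 1 within the 2 kb beside the gene and not in its span. H3K4me3 covered 15.8% and 17.2% of the same window. The 1.59 kb stretch of H3K4me3 at Hoxb9 lay 0.79 kb from H3K27me3 in replicate 1 and 100% inside it in replicate 2. The longest H3K27me3 intervals of the HoxB window lay outside the gene row, one of 13.2 kb past Hoxb1 in replicate 1 and one of 10.2 kb over Ttll6 in replicate 2.

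The 3 genes next to Hoxb9 had activating marks in their windows without H3K27me3. Hoxb8 had H3K4me3 over 12.1% and 12.4%, Hoxb7 over 21.8% and 21.8% and Hoxb6 over 33.7% and 33.4% of the window. At Hoxb7 the H3K4me3 and both acetylations lay in the 2 kb beside the gene and not in its span. H3K36me2 began within Hoxb6, which it covered over 54.6% and 56.2%, filled Hoxb5, which had no other mark, over 84.9% and 100%, and went on into Hoxb3. Hoxb4, known for expanding blood stem cells, had H3K36me2 over 49.3% and 86.4%, H3K4me3 over 24.8% and 25% and ATAC-seq over 3.45% and 3.01%. Hoxb3 had H3K36me2 over 50.6% and 75.6% and H3K4me3 over 10.5% and 10.2%. The longest H3K36me2 interval was 12.6 kb in replicate 1, reaching into Skap1, and 13.8 kb in replicate 2, over Hoxb5 and parts of Hoxb6 and Hoxb3.

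The outer genes of HoxB differed from this middle block. Hoxb13, used in the prostate, lies apart from the other genes and carried H3K36me2 over 96.6% and 95.3%, H3K27ac over 3.75% and 4.54% and H3K4me3 over 5.53% in replicate 1 and 0% in replicate 2. Hoxb2, a hindbrain gene, had 0% of all 6 assays in both replicates. Hoxb1, a gene of the early hindbrain, had 10% H3K27me3 in replicate 2 and no other interval. The 7 stretches of H3K4me3 in HoxB measured 0.226 kb (replicate 1 only) and 2.14 kb beside Hoxb13, 1.59 kb at Hoxb9, 1.25 kb at Hoxb8, 4.3 kb at Hoxb6, 2.86 kb in Hoxb3 and 1.86 kb at Hoxb4.

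HoxD was the cluster in which the share of bases in H3K27me3 between the first and last gene differed most between replicates. Between Hoxd13 and Hoxd1 (chr2:74668225-74765142) the mark covered 0% in replicate 1 and 19.2% in replicate 2. In replicate 2 it filled 73.3% of the window of Hoxd12, 93% of Hoxd11 and 75% of Hoxd10 and 2.37% of Hoxd13, and in replicate 1 it touched none of the 4. Both replicates had H3K27me3 before Hoxd13, with the longest interval 13.4 kb and 17.4 kb, starting 52 kb and 54.8 kb before the gene. Counted from the first base of Hoxd13, the last H3K27me3 on this side ended at -18 kb in replicate 1 and at 25.2 kb in replicate 2. The edge of H3K27me3 thus differed by 1 bin between replicates in HoxC while in HoxD Hoxd13, Hoxd12, Hoxd11 and most of Hoxd10 lay between the edges of the replicates.

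The low-numbered side of HoxD carried H3K36me2, covering 30.3% and 31.6% of the cluster. Hoxd4 was covered over 93.2% and 73.5% and Hoxd3 over 64.7% and 64.2%. The longest intervals measured 17.8 kb in replicate 1, over Hoxd4 within Hoxd3, and 12.2 kb in replicate 2, at the end of Hoxd3. Hoxd1 and Hoxd9 had 0% of all 6 assays in both replicates, and Hoxd4 had H3K36me2 and no other mark.

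The widest H3K4me3 of the Hox genes lay in HoxD. A stretch of 6.74 kb over the start of Hoxd3 ranked 51 of 18574 H3K4me3 stretches of the genome, replicates merged, and one of 5.16 kb at Hoxd8 ranked 187. The genome-wide median was 1.39 kb, and 213 stretches, or 1.15%, reached 5 kb. These stretches lie next to each other. Hoxd3 had H3K4me3 over 15.9% and 16.1% of its long window. Hoxd8 had H3K4me3 over 72.2% and 72.3% of its window, H3K9ac over 65.5% and 66.9%, H3K27ac over 66% and 65.4% and ATAC-seq over 11.3% and 20.5%. A 1.5 kb stretch between Hoxd13 and Hoxd12 reached both windows, covering 20.3% and 19.8% of Hoxd13 and 3.8% and 3.71% of Hoxd12. A 0.336 kb stretch at Hoxd10 had H3K9ac in replicate 1 only and no H3K27ac, so H3K4me3 was the one mark that both replicates had at Hoxd10.

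**Figure D3:**
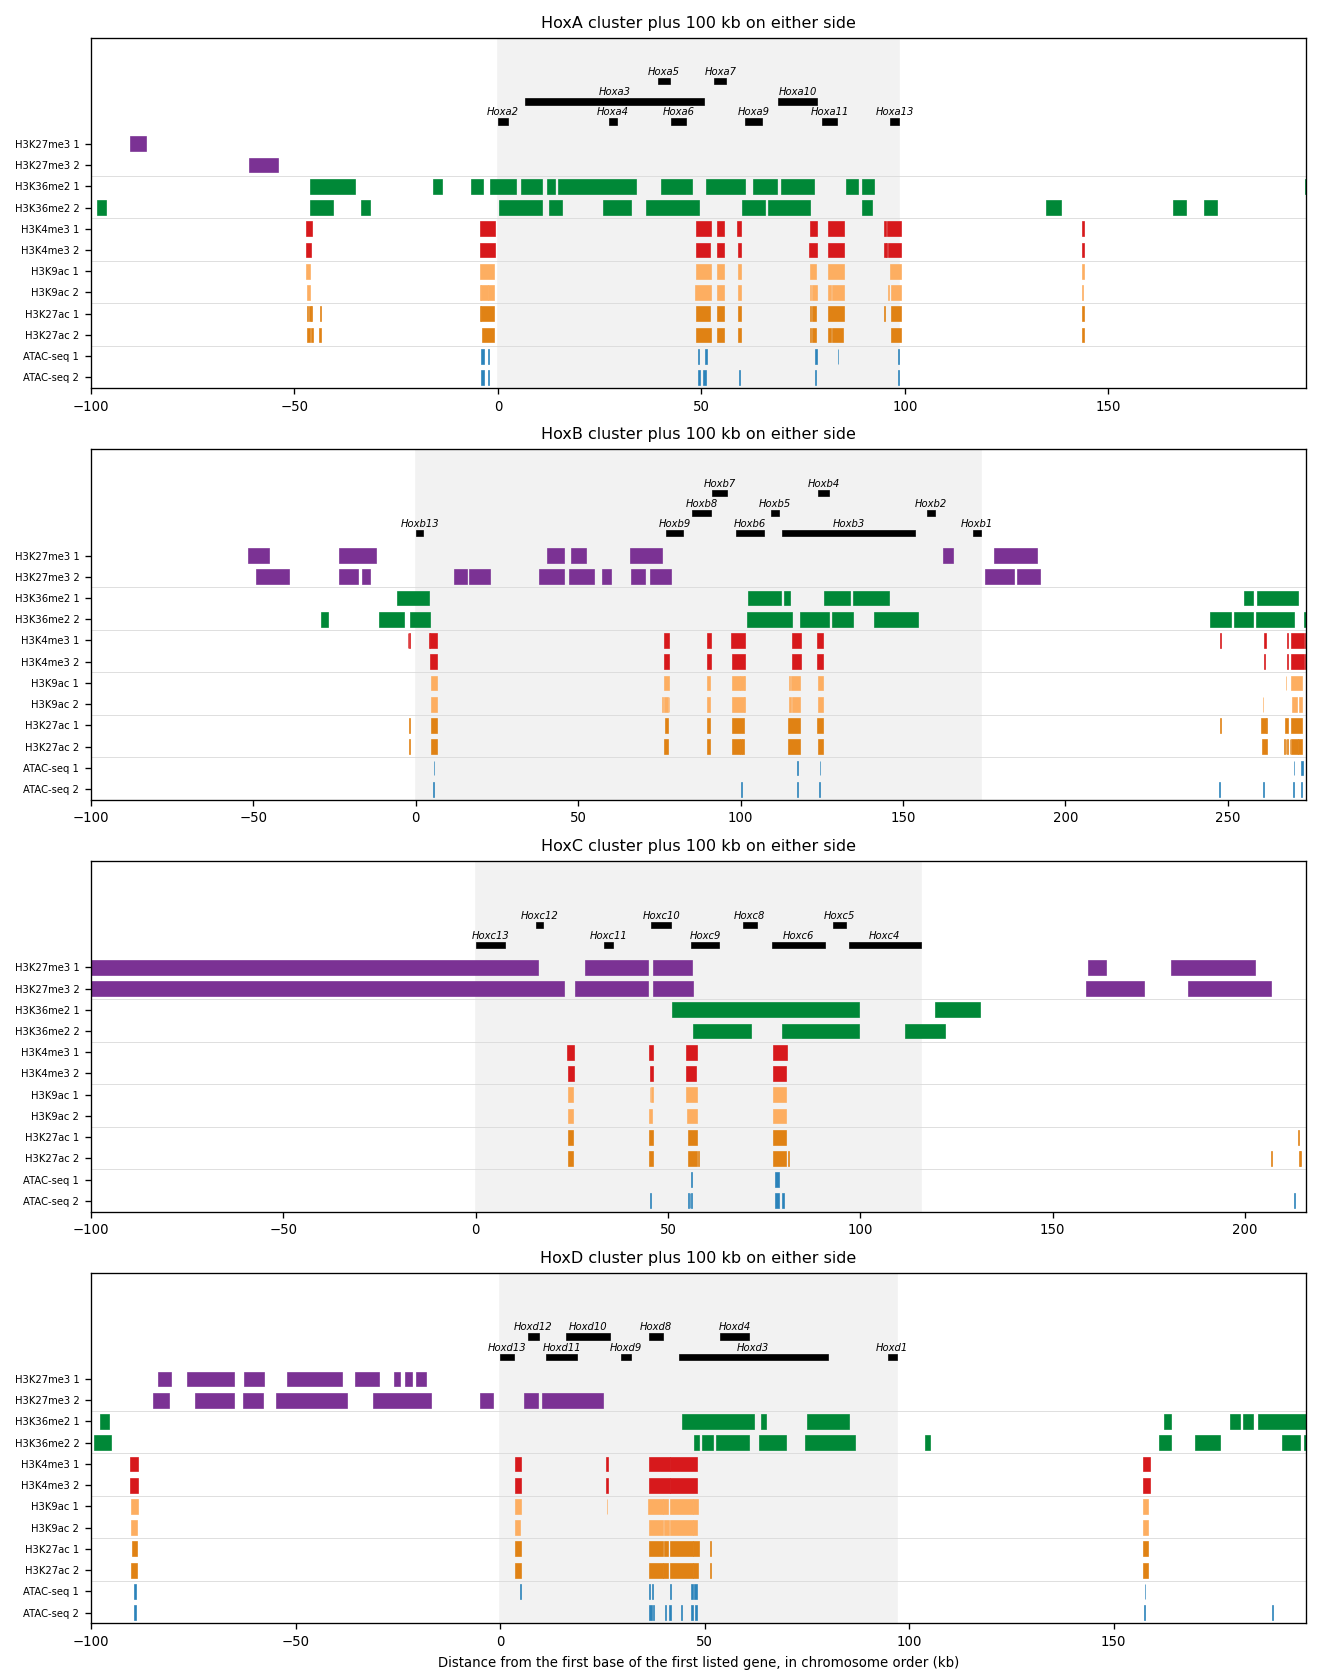
Called intervals of each assay and replicate (rows) over the 4 clusters plus 100 kb on either side, against distance in kb from the first base of the first listed gene; black bars are gene spans and the grey field the cluster. H3K27me3 is missing between the ends of HoxA, fills the left of HoxC, and appears under HoxD genes in replicate 2 only.

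Summed over the 4 clusters, 485 kb from first to last genes, H3K27me3 covered 13.5% and 22.7%, H3K36me2 37.4% and 34.9% and H3K4me3 10.7% and 10.7%. H3K9ac covered 9.79% and 9.98%, H3K27ac 9.78% and 9.86% and ATAC-seq 1.2% and 1.71%. Over all gene windows H3K4me3 covered 2.1% and 2.06% and ATAC-seq 0.639% and 0.729%. With the flanks, H3K27me3 rose to 21.2% and 26.6% of 1290 kb and H3K36me2 fell to 19.7% and 19.5%, so over the 4 clusters H3K36me2 covered a larger share of the gene rows than of the flanks and H3K27me3 a smaller one. For H3K27me3 this depends on the long HoxC interval, which filled 100% of the 100 kb before Hoxc13 in both replicates. With that 100 kb left out, the order stayed in replicate 1. In replicate 2 it was reversed, the other flanks together holding a smaller share than the gene rows. In replicate 2 of HoxB the order was the other way, with 22.5% between the genes and 18.6% and 16.2% in the flanks. These are shares of bases, without height. The overlap of the replicates, as shared over combined bases, was 0.665 for H3K27me3 in the clusters with flanks against 0.498 in the whole lists. By cluster with flanks this H3K27me3 overlap was 0 in HoxA, 0.501 in HoxB, 0.851 in HoxC and 0.48 in HoxD, so HoxC raised the pooled value. The overlap was 0.479 against 0.568 for H3K36me2 and 0.48 against 0.66 for ATAC-seq. For H3K4me3 it was 0.947 against 0.922.

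**Figure D4:**
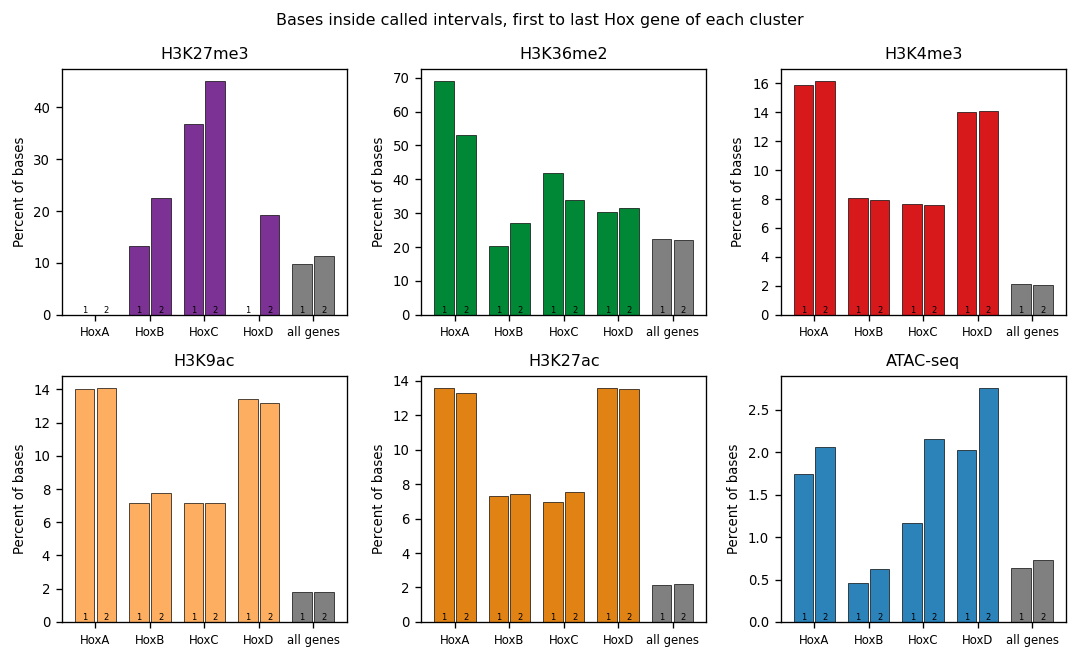
Percent of bases (vertical axis, from 0) inside called intervals from the first to the last listed gene of each cluster, 1 bar per replicate, beside the bases of all protein-coding gene windows in grey. H3K27me3 goes from 0% in HoxA to 36.9% and 45.2% in HoxC, and H3K36me2 is highest in HoxA at 69.2% and 53.2%.

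By paralog number, H3K27me3 called in both replicates lay at the high end and mostly in HoxC. It touched 0 of 7 genes of paralog groups 1 to 3, 0 of 15 of groups 4 to 8 and 6 of 16 of groups 9 to 13. Over all protein-coding genes the share was 18.0%. HoxC gave 5 of these 6 genes, which are neighbours. The other was Hoxb9, with 7.23% of its window and none of its span covered in replicate 1. In at least 1 replicate the counts by group were 1, 0 and 10. The genes of groups 9 to 13 without H3K27me3 in either replicate were Hoxa9, Hoxa10, Hoxa11, Hoxa13, Hoxb13 and Hoxd9, so HoxA gave 4 of the 6. H3K36me2 touched 4 of 7, 11 of 15 and 4 of 16 genes of those groups in both replicates, and H3K4me3 touched 4 of 7, 7 of 15 and 10 of 16. Over all protein-coding genes these marks touched 46.2% and 51.8%. Neighbours share intervals, so the groups are not independent of the blocks given above.

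Some paralogs carried the same marks in each cluster. The 3 genes of group 5, Hoxa5, Hoxb5 and Hoxc5, had H3K36me2 and no other mark, at 61.3%, 84.9% and 100% in replicate 1 and 100%, 100% and 100% in replicate 2. All 4 genes of group 4 had H3K36me2, and Hoxb4 was the one among them with H3K4me3. The 3 genes of group 3 had H3K36me2, H3K4me3, both acetylations and ATAC-seq in both replicates, though their windows are the longest of the 38. The genes of group 13 differed among themselves, as did those of group 9. Hoxa13 had wide H3K4me3, Hoxb13 mainly H3K36me2, Hoxc13 H3K27me3 alone, and Hoxd13 H3K4me3 from the stretch beside it.

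**Figure D5:**
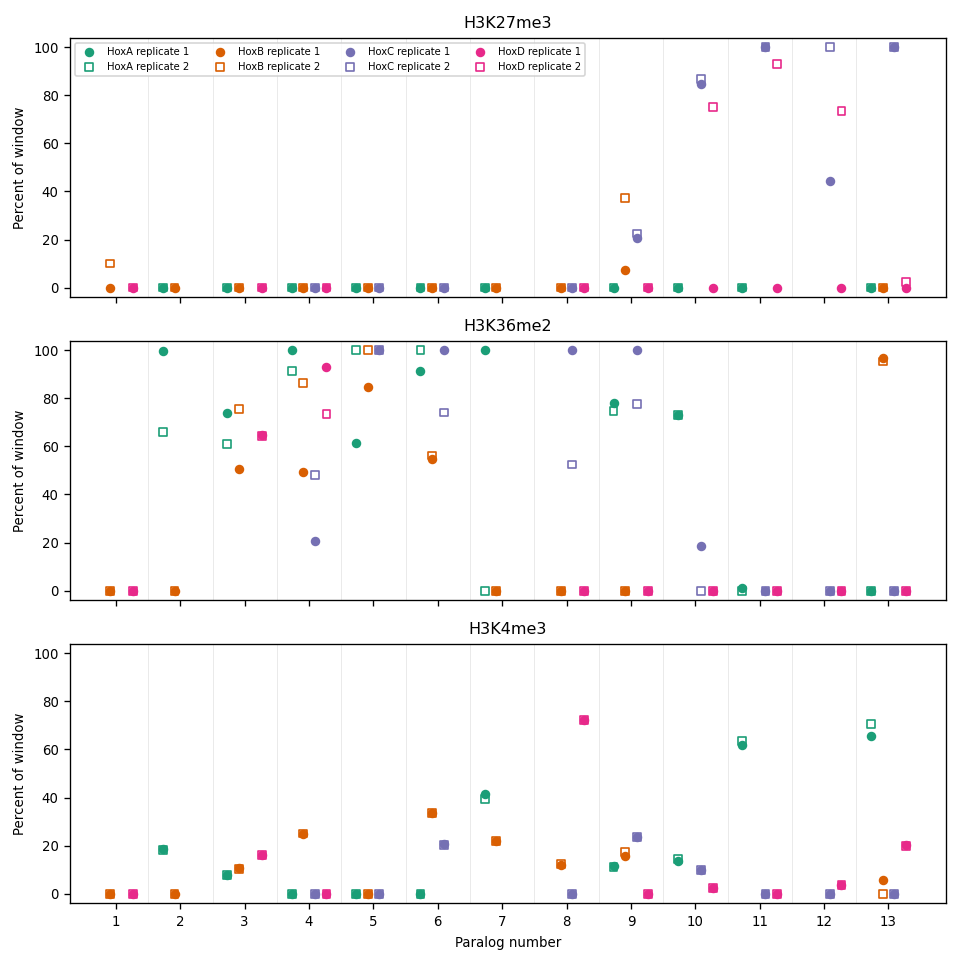
Percent of each Hox gene window covered by H3K27me3, H3K36me2 and H3K4me3 (panels) against paralog number, by cluster (colour) and replicate (filled circle 1, open square 2). Above 0%, H3K27me3 appears from number 9 up and at Hoxb1 in replicate 2, and H3K36me2 is highest from number 2 to 10 and at Hoxb13.

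At the start sites themselves the picture was narrower. RefSeq promoter entries were matched for 22 of the 38 genes, with 24 start sites. H3K4me3 in both replicates lay over the start base at 7 of 24, or 29.2%, beside 31.9% of 32619 starts, namely at Hoxa3, Hoxa10, Hoxa11, Hoxa13, Hoxb4, Hoxd3 and Hoxd8. H3K27ac lay over 6, or 25%, beside 30.5%, all of these but Hoxa10. H3K36me2 lay over 6, or 25%, beside 8.08%, at Hoxa2, Hoxa5, Hoxa6, Hoxa9, Hoxa10 and Hoxd4. At Hoxa10 it lay over one start site and H3K4me3 over the other, so no start carried both marks in both replicates. H3K27me3 lay over 0, beside 6.03%, and the genes it filled in HoxC were not among the 22. In replicate 2 alone it lay over 4 starts, those of Hoxd10 and Hoxd12 and both of Hoxd11. ATAC-seq lay over 1, at Hoxa13, beside 25.0%.

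The 250 bases before the start are printed for the 5 genes whose H3K4me3 interval at the start was widest, and for Hoxd13, a paralog of Hoxa13 with no interval over its start, which was added after the values were seen. They come from RefSeq on GRCm38.p6, read 5′ to 3′ on the strand of the gene, and capitals mark CG dinucleotides, the sites of DNA methylation that are dense in CpG islands.
Hoxd3, chr2:74711743-74711992, plus strand: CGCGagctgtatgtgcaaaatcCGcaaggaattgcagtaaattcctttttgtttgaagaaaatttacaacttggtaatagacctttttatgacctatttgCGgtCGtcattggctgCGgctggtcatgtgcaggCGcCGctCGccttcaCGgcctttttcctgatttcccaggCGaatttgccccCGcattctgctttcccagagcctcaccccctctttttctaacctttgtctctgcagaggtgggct
Hoxd8, chr2:74704365-74704614, plus strand: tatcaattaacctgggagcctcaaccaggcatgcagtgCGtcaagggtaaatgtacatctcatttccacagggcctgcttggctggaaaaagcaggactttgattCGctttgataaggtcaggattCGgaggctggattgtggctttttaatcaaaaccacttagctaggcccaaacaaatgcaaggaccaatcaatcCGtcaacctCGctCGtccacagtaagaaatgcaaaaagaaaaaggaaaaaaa
Hoxa11, chr6:52245811-52246060, minus strand: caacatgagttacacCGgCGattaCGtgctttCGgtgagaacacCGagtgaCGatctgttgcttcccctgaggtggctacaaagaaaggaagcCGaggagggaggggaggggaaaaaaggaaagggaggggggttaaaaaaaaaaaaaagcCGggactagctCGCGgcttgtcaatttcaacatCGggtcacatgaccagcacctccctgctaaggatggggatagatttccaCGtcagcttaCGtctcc
Hoxa3, chr6:52213068-52213317, minus strand: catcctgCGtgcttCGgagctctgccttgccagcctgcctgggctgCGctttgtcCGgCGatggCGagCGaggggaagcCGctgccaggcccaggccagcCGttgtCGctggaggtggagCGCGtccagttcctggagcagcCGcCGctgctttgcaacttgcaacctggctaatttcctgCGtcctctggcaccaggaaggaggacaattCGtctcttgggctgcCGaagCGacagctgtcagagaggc
Hoxa13, chr6:52260881-52261130, minus strand: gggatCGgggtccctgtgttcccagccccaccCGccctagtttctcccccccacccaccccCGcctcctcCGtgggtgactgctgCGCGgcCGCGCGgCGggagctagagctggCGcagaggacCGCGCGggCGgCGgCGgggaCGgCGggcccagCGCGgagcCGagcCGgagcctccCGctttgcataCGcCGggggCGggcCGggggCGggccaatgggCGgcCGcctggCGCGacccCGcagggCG
Hoxd13, chr2:74667975-74668224, plus strand: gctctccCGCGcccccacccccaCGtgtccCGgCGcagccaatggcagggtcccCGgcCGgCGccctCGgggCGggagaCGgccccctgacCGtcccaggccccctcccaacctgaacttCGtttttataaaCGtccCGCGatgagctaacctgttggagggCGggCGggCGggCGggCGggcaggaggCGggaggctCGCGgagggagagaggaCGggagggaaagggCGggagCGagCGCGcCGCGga

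CG dinucleotides were counted in these windows. Hoxd3 and Hoxd8, under intervals of 6677 bp in both replicates and of 5090 bp and 5162 bp, held 12 and 6 CG in 250 bases with a G+C content of 49.2% and 44.4%. Hoxa13, under 3407 bp and 3389 bp, held 35 with 80% G+C, and Hoxd13, with no interval at its start, held 31 with 74.4% G+C. Over the 7 starts with H3K4me3 in both replicates the median was 13 and over the 17 without it 12, against 6 over all 32619 starts. Of the motifs searched on both strands, CCAAT was found before 14 of 24 Hox starts, or 58.3%, and 34% of all starts. No motif of those searched contains another. GGGCGG was found before 10, or 41.7%, against 33% of all, and TATAAA before 4, or 16.7%, against 12.4%. TGTGGT, the core of the Runx site, and CCGGAA, that of the Ets site, were each found before 1, or 4.17%, against 13.9% and 12.1% of all. TAATTA, a homeodomain site, was found before both starts of Hoxd11, so 8.33% against 4.8% of all. TGATTNAT, a Pbx-Hox site, was found before starts of Hoxa2 and Hoxd11, so 8.33% against 2.84% of all.

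Open chromatin in the gene rows was found at H3K4me3. The 4 clusters held 25 ATAC-seq sites, replicates merged, of which 13 were called in both, and 25 of 25 touched H3K4me3, H3K9ac and H3K27ac in both replicates. No share over all ATAC-seq sites is given for this count, so it is not read as particular to the Hox clusters. By bases, a different measure, 84.1% and 81.9% of the ATAC-seq in the whole lists lay in H3K4me3. For H3K9ac the shares were 78% and 76.4%, and for H3K27ac 83.3% and 82.6%. With the flanks of the clusters, 100% and 91.9% of the ATAC-seq bases lay in H3K4me3. The widest were 1052 bp at Hoxc6, 1038 bp at Hoxa3, 637 bp at Hoxd8 and 600 bp at Hoxd3. H3K27me3 was touched by 3 of the 25, each near Hoxc9. In the cluster windows ATAC-seq covered 12.4% and 16.6% of the H3K4me3 bases, against 26% and 29.7% in the whole lists. H3K9ac covered 85.6% and 86.4% of them, against 79.4% and 80.1%, and H3K27ac 85.9% and 84.8%, against 80.1% and 81.4%. Of 22 stretches of H3K4me3 in the gene rows, 10 touched ATAC-seq in both replicates and 15 in at least 1. H3K9ac touched 19 and H3K27ac 19 in both. No share over all H3K4me3 stretches is given for these counts. The wide stretch at Hoxa11 had a site in replicate 1 only, covering 4.85% of it, and the count of Hoxa11 with ATAC-seq in both replicates rests on the site at Hoxa10 next to it.

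The miRNA genes of the clusters belong to 3 families, and the mature forms are shown because those of miR-196 and miR-10 share seeds across clusters, with miR-615-3p as the remaining family. The sequences are from RefSeq, 5′ to 3′, with the seed, bases 2 to 8, in capitals.
miR-196a-5p: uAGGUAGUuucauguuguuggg
miR-196b-5p: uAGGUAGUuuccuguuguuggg
miR-10a-5p: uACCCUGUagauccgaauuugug
miR-10b-5p: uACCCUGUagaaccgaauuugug
miR-615-3p: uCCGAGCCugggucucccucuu

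miR-196a and miR-196b have the seed AGGUAGU and are known to act on Hox mRNAs, and miR-10a and miR-10b have the seed ACCCUGU. Mir196b in HoxA (chr6:52230081-52230165) lay in H3K36me2 in both replicates. Mir196a-1 in HoxB (chr11:96265164-96265265) lay in H3K27me3 in replicate 1 and not in replicate 2. Mir196a-2 in HoxC (chr15:102973350-102973434) lay in H3K27me3 in both and in H3K36me2 in replicate 1, within the shared stretch before Hoxc9. Copies of the same mature miR-196a-5p were thus encoded in stretches with H3K27me3, and miR-196b-5p in one with H3K36me2. Mir10a beside Hoxb4 lay in H3K36me2 in replicate 2 only, and Mir10b at Hoxd4 and Mir615 at Hoxc5 in both replicates.

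The protein-coding neighbours within 100 kb fell into the same kinds. Evx1 and Evx2, homeobox genes beside HoxA and HoxD, had no activating mark, and Evx2 had H3K27me3 over 0% and 5.83% of its window. Ttll6, beside HoxB, had H3K27me3 over 14% and 22.3%, and Calcoco2 had no interval of any assay. Skap1, an adaptor of T cell signalling, Lnpk and Mtx2 carried H3K36me2, at 72.8% and 71.4%, 41.1% and 32.3%, and 39.7% and 28%, with H3K4me3, both acetylations and ATAC-seq in both replicates. Among the antisense RNA genes, given by span, Hotair had H3K4me3 over 43.2% and 41.6% and H3K27me3 over 0% and 24.4%. In the window of Hotair H3K27me3 covered 4.39% and 61.9%. Haglr, between Hoxd3 and Hoxd1, had H3K36me2 over 35.8% and 45.4% of its span and no H3K4me3. The lists carry no strand, so marks of sense and antisense genes cannot be told apart.

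Genes that act with Hox proteins or on Hox chromatin were also examined. Of 9 cofactor genes, 5 carried H3K4me3, both acetylations and H3K36me2 in both replicates, namely Pbx2, Pbx3, Pbx4, Meis3 and Pknox1. These 55.6% lay near the 51.8% and 46.2% of all genes with H3K4me3 and H3K36me2. H3K27me3 touched Meis1, Meis3 and Pknox2, with 60.5% and 70.6% of the window of Pknox2. Of 18 chromatin regulators, among them Ezh1, Ezh2 and Eed of Polycomb complex PRC2, 18 carried H3K4me3 and ATAC-seq and 17 H3K36me2 in both replicates. Of 32 other homeobox genes of development, 9 carried H3K27me3, 3 H3K36me2 and 10 H3K4me3 in both replicates, or 28.1%, 9.38% and 31.2%. The same shares were 15.8%, 50% and 55.3% among the 38 Hox genes and 18.0%, 46.2% and 51.8% among all protein-coding genes.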

How the data were processed

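ATAC-seq and ChIP-seq of 5 histone marks in EL4 cells were deposited as 12 lists of interval positions with no score, 2 per assay. Per the labels and the methods of the study, the authors aligned reads with STAR 2.5 to GRCm38, kept uniquely mapped reads, removed duplicates with Picard and called H3K4me3, H3K9ac, H3K27ac and ATAC-seq with MACS2 and H3K27me3 and H3K36me2 with Epic, whose intervals follow 200 bp bins. Such broad calls join nearby bins, so long intervals and their breaks depend on the caller. ChIP input served as control for the ChIP-seq lists. The replicates were technical. Genes on X were kept among all genes because the lists hold intervals there, although the methods describe reads on X as discarded.

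Overlapping intervals of a list were joined, and bases of the RefSeq spans (GRCm38.p6) plus 2 kb were counted with Python 3.11.15, numpy 2.4.6 and pandas 2.3.3. A gene was called touched from 1 bp. The counting was checked on simulated data and with bedtools 2.31.1, which gave 0 differing genes in each list. Promoter windows overlapping on opposite strands were complementary in 1711 of 1711 cases. No test was run, since positions from technical replicates carry no biological spread. The members and gene lists were chosen with earlier results of these data known. All 38 genes are named by rule. 1 further gene of this region is not reported here. Figures were drawn with matplotlib 3.10.9. Each count was repeated with other windows, overlaps, widths and replicate rules.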

Additional observations from a re-analysis of the deposited data

How the results depend on the processing

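Of 48 repeats of the counts of Hox genes touched, 42 stayed within 1.5 times the value reported. Of 48 repeats of the shares of cluster bases, 30 moved by at least the SD of the 2 replicates. The 6 shares over all genes all moved when non-coding genes were included. The protein-coding background was not recomputed for the other windows, overlaps, widths or replicate rules, so Hox counts under those rules have no like background. The count with H3K27me3, 6, became 11 where either replicate sufficed, and without 1 replicate it ranged from 6 to 11, the higher value coming from replicate 2 on its own. The count with ATAC-seq, 10, became 16 with either replicate and 16 with 5 kb on either side of a gene, 3 with intervals of at least 500 bp and 1 where 10% of the window had to be covered. The share of the cluster windows in H3K27me3, 23.9%, became 28.7% for bases in either replicate, 19.1% for bases in both and 18.1% without flanks, and ranged from 21.2% to 26.6% with 1 replicate. That in H3K36me2, 19.6%, became 26.5%, 12.7% and 36.1% in the same way, 23.6% and 23.2% with flanks of 50 kb and 200 kb and 19.9% with intervals joined across 1000 bp, and ranged from 19.5% to 19.7% with 1 replicate. Without the 2 kb, H3K4me3 in both replicates was lost at Hoxa2, Hoxa9, Hoxb7, Hoxd12 and Hoxd13, leaving 16 genes. With all RefSeq genes as background the shares touched fell to 16.5% for H3K27me3, 30.1% for H3K36me2, 30.2% for H3K4me3. The acetylations came to 29.1% (H3K9ac) and 30.3% (H3K27ac), and ATAC-seq to 26.6%. The Hox genes, all protein-coding, had 15.8%, 50%, 55.3%, 52.6%, 55.3% and 26.3% in the same order. The depth of the lists is unknown, so an absent interval does not show an absent mark, and 2 technical replicates carry no spread between cultures. No test was run, and so no paired analysis was made.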
